A study of Saccharomyces cerevisiae with 6 samples.

Results

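The genes described here encode proteins at the top and at the transcriptional end of the filamentous growth pathway of budding yeast. They are the mucin-like sensors MSB2 and HKR1, the membrane adaptors SHO1 and OPY2, the cytosolic adaptor STE50, the polarity proteins CDC42, CDC24 and BEM1, and the repressors DIG1 and DIG2. All 10 were found by gene symbol in the platform's annotation, each with 1 probe set, among 5449 genes tested. On every one of the 6 arrays each of the 10 read above background, which was set by probe sets of another yeast and lay at 5.67 to 5.74 (log2).

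Expression arrays were hybridised with RNA from 3 cultures of a wild-type diploid of the Σ1278b background, a lineage of laboratory yeast able to grow as filaments when starved of nitrogen. The other 3 arrays carried RNA of a strain of the same background deleted for PUN1, which encodes a plasma membrane protein; the design text calls it a homozygous diploid. Both strains grew in rich medium at 30 °C to an OD600 of 0.6 and then spent 6 h in low-nitrogen SLAD medium with 2% glucose. The labels call the cultures biological replicates and do not say how many isolates of the deletion strain were used.

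In the filamentous pathway, the signalling mucin Msb2 and the membrane protein Sho1 act at the cell surface, and the GTPase Cdc42 passes the signal to a p21-activated kinase, Ste20. Ste20 starts a MAP kinase cascade of Ste11, Ste7 and Kss1, and Ste50, held at the membrane by Opy2, brings Ste11 to it. At the end of the cascade the transcription factor Ste12, which acts with Tec1 at filamentation genes, is released from the repressors Dig1 and Dig2. Genes such as that of the flocculin Flo11 are then turned on. Several of these proteins also serve the mating pathway and the high-osmolarity glycerol (HOG) pathway, so the list is not specific to filamentation.

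Before the members, the arrays were checked against their labels. Values by array are given below in the order of replicates 1, 2 and 3. PUN1 read 13.35, 13.50 and 13.55 (log2) in wild type and 8.33, 4.83 and 4.93 in deletion, and was called lower (limma adjusted p = 0.00169). Deletion replicate 1 alone of the 3 deletion arrays stood above background. The arrays labelled pun1 deletion also did not read like the wild-type diploid in their mating-type genes. These genes report on mating type and do not measure ploidy. All 5 alpha-cell markers passed the test as higher there, by a log2 difference of 3.68 (SAG1, an agglutinin) to 7.93 (MF(ALPHA)1, a pheromone gene that read near background in wild type). HMRA1, the gene of the a1 repressor subunit, was at least 10.7-fold lower and read below background on all 3 deletion arrays (limma, adjusted p = 6.75e-06). Of 6 a-cell markers 0 passed in the limma fit (2 at an unadjusted p under 0.05, and 4 as lower after quantile normalization), with differences of -0.35 to -0.03, and all 8 haploid-specific markers passed as higher, with a median of 4.24. Of the a-cell markers AGA2, an agglutinin subunit, passed as lower at -0.32 with the replicate number as a block (limma adjusted p = 0.0491) and at -0.35 after median centring (adjusted p = 0.0385). Leaving out wild-type replicate 1 gave calls as lower on AGA2 and BAR1 (adjusted p = 0.0126 and 0.0297), and leaving out deletion replicate 1 gave one on MFA2 (adjusted p = 0.0408). AGA2, MFA1 and STE2 passed as lower when the 3 arrays whose 25S control read high (described below) were left out (adjusted p = 0.0197 to 0.032). That fit keeps deletion replicate 1 as its only deletion array. The loss of PUN1 and this difference in mating type cannot be told apart in any comparison below. With bulk RNA, fewer cells of a type and less RNA per cell cannot be told apart either.

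The comparison asked whether the components that feed the filamentous MAP kinase cascade differed in transcript level between the strains. MSB2, OPY2, DIG1, CDC42 and BEM1 were higher in the deletion arrays, HKR1 was lower, and SHO1, STE50, CDC24 and DIG2 did not pass the test. Thus 5 of the 10 were higher, 1 was lower and 4 did not pass at an adjusted p of 0.05 (limma, Benjamini-Hochberg over all 5498 tested probe sets). Of all tested probe sets 25.6% were called, 15.8% higher and 9.82% lower. The median difference of the 10 genes was 0.21 (log2), and that of all tested probe sets was 0.02. All differences were modest: those of MSB2 and OPY2 were both 0.53, and 7 of the 10 were under 0.3 in size. Under the fit that keeps the replicate number as a block, BEM1 and HKR1 lost their calls (adjusted p = 0.0561 and 0.0641), leaving 4 higher and 0 lower.

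**Figure D1:**
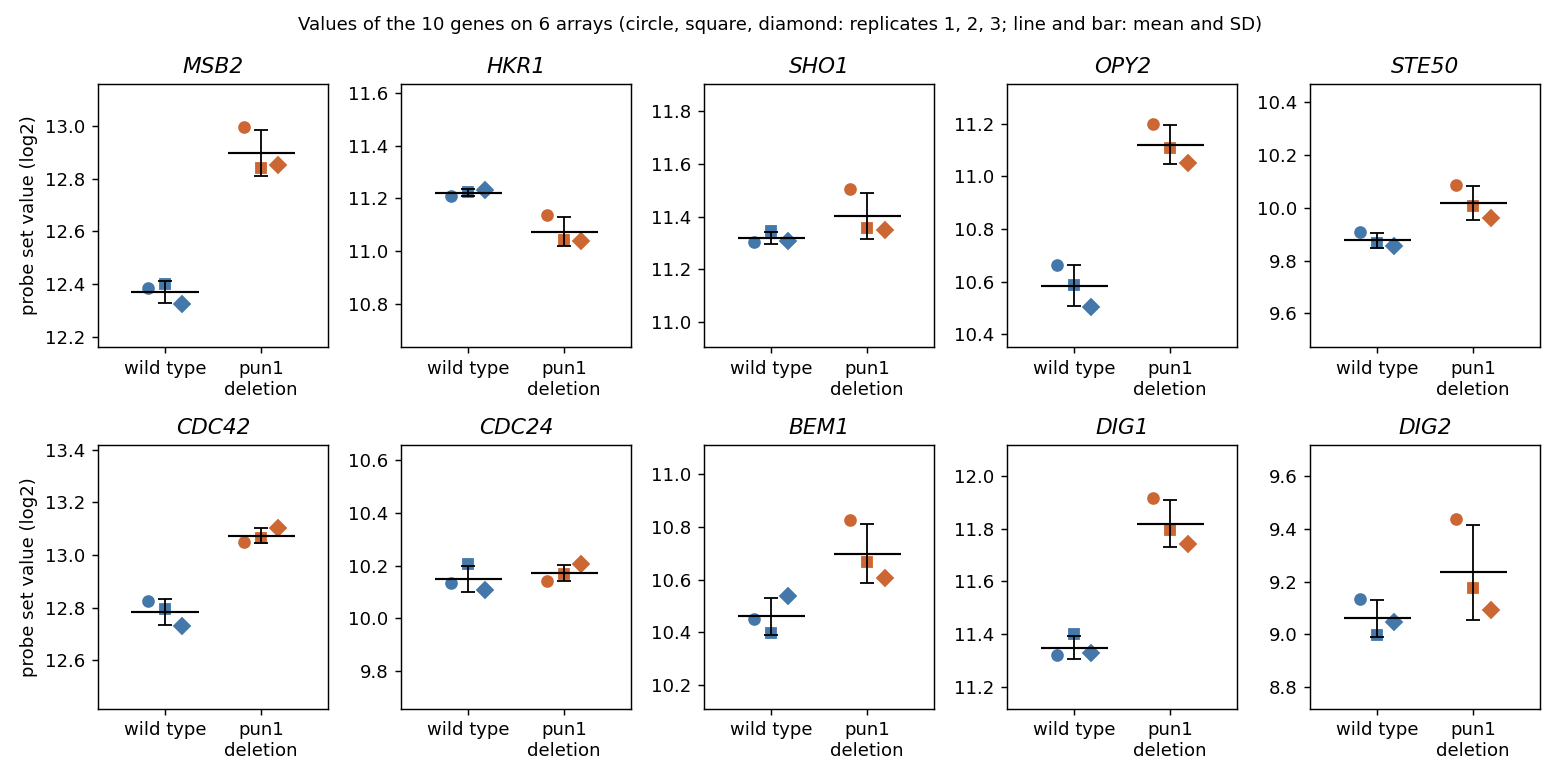
Probe set value (log2) of each gene on the 3 wild-type and 3 pun1 deletion arrays, 1 panel per gene and each vertical axis spanning 1 log2 unit; symbols mark replicates 1, 2 and 3, and the line and bar give the mean and SD. MSB2, OPY2, DIG1 and CDC42 show a clear step between the groups, and CDC24 and DIG2 overlap.

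MSB2 (YGR014W) encodes the signalling mucin that acts at the cell surface in the filamentous pathway. It read 12.39, 12.40 and 12.32 (log2) in wild type and 13.00, 12.84 and 12.85 in deletion. Every deletion array lay above every wild-type array, with a gap of 0.44 between the groups against a range of 0.15 within the deletion arrays. The difference was 0.53 (SE 0.05, n = 3 per group, limma adjusted p = 0.000968), which is 1.44-fold (95% confidence interval 1.32 to 1.58). The difference exceeded that of 93.9% of tested probe sets in size.

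HKR1 (YDR420W) encodes the other mucin-like sensor, which is best known for its part in the HOG pathway. Its wild-type values of 11.21, 11.23 and 11.23 (log2) spanned 0.02, and its deletion values were 11.14, 11.04 and 11.04. All 3 deletion arrays were below all 3 wild-type arrays, by a gap of 0.07. The difference was -0.15 (SE 0.04, n = 3 per group, limma adjusted p = 0.0448), a fold of 0.902. HKR1 moved opposite to MSB2 on the same arrays. The call was lost when any array other than deletion replicate 1 was left out (adjusted p = 0.0757 to 0.159).

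The contrast between both mucin genes was also taken within each array. The log2 ratio of MSB2 to HKR1 was 1.18, 1.18 and 1.09 in wild type and 1.86, 1.80 and 1.81 in deletion. With MSB2 higher and HKR1 lower on every deletion array, the ratio had to be higher on each of them. Its mean moved by 0.67 (SD 0.05 in wild type and 0.03 in deletion, n = 3 per group). An exact permutation test, two-sided, gave p = 0.1, which is the smallest that 3 arrays against 3 allow. The adjusted p was 0.133 over the 4 pairs of genes tested. That outcome was fixed by the separation of both genes and adds no support. A ratio of this kind shows unequal change of the 2 probe sets and sets no level of one gene against that of the other.

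OPY2 (YPR075C), the single-pass membrane protein that anchors Ste50, differed by as much as MSB2. It read 10.66, 10.59 and 10.51 (log2) in wild type and 11.20, 11.11 and 11.05 in deletion. The groups were separated by 0.39. The difference was 0.53 (SE 0.06, n = 3 per group, limma adjusted p = 0.00127), or 1.45-fold (95% confidence interval of the log2 difference 0.39 to 0.67). Arrays with the same replicate number differed by 0.53, 0.52 and 0.54, so this gene varied little between the 3 numbered pairs.

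SHO1 (YER118C), the membrane protein with an SH3 domain that serves the filamentous and HOG pathways, did not pass. Its wild-type values were 11.30, 11.35 and 11.31 (log2), and its deletion values were 11.50, 11.36 and 11.35. Deletion replicate 1 stood apart from the other deletion arrays, which lay close to the highest wild-type value. The difference was 0.08 (95% confidence interval -0.04 to 0.21, n = 3 per group, limma adjusted p = 0.287), so the interval runs up to 1.16-fold higher. Without deletion replicate 1 it was 0.03 (adjusted p = 0.586), and without the 3 arrays of high 25S signal it was 0.18 (adjusted p = 0.175). The ratio of SHO1 to OPY2 within an array was 0.64, 0.76 and 0.80 in wild type and 0.31, 0.25 and 0.30 in deletion. It moved by -0.45, at the smallest p the exact permutation test can give (two-sided p = 0.1, adjusted p = 0.133, n = 3 per group).

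STE50 (YCL032W), the adaptor that links Ste11 to Opy2 and Cdc42, read 9.91, 9.87 and 9.85 (log2) in wild type and 10.09, 10.01 and 9.96 in deletion. The groups did not overlap, but their gap was only 0.05. The difference of 0.14 (95% confidence interval 0.03 to 0.25, n = 3 per group) did not pass after adjustment (limma adjusted p = 0.0656). Under none of the 13 alternatives did it pass (limma adjusted p = 0.0528 to 0.182). Without the 3 arrays of high 25S signal it was 0.23, again with deletion replicate 1 as the only deletion array. The 2 adaptor genes SHO1 and STE50 therefore had smaller differences than OPY2, and only for the pair of SHO1 and OPY2 was that difference tested.

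**Figure D2:**
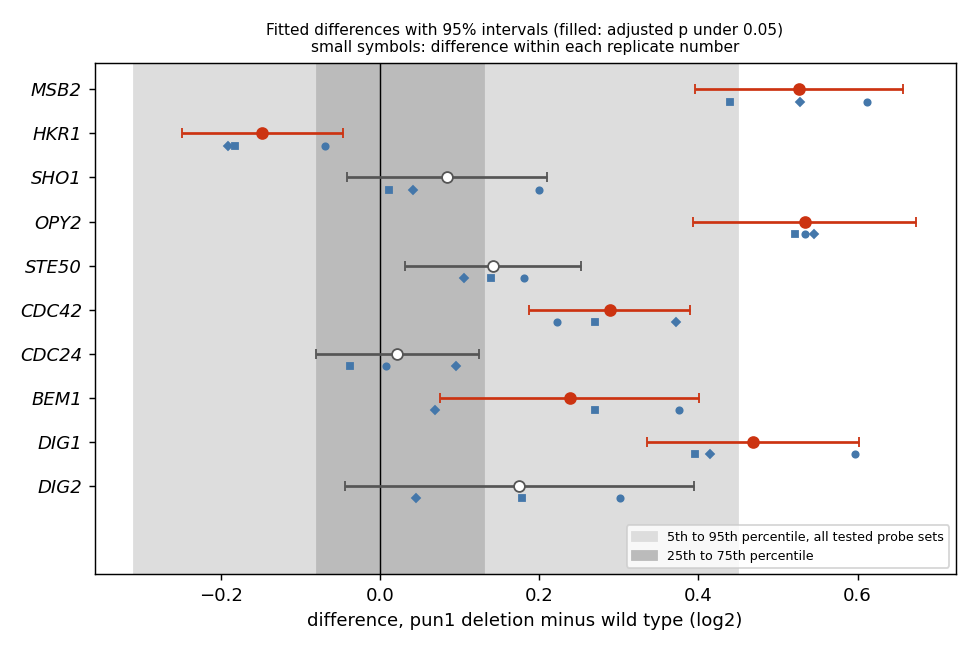
Fitted difference of each gene, pun1 deletion minus wild type (log2), with its 95% confidence interval; filled circles passed at an adjusted p of 0.05, small symbols are the differences within replicate numbers 1, 2 and 3, and the shaded bands hold the central differences of all tested probe sets. MSB2, OPY2 and DIG1 lie beyond the 95th percentile of all tested probe sets, 0.45, while CDC24 lies near 0.

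Of the polarity proteins, the GTPase gene CDC42 (YLR229C) was higher in the deletion arrays. It read 12.83, 12.80 and 12.73 (log2) in wild type and 13.05, 13.07 and 13.10 in deletion. The deletion arrays were tight, with a range of 0.05, and lay 0.22 above the highest wild-type array. The difference was 0.29 (SE 0.04, n = 3 per group, limma adjusted p = 0.00381), or 1.22-fold (95% confidence interval 1.14 to 1.31). Without the 3 arrays whose 25S ribosomal RNA control probe set read high (11.28 to 12.81, against 8.85 to 9.07 on the others), it was the same 0.29 but did not pass (adjusted p = 0.0569), with 1 deletion array left.

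CDC24 (YAL041W), which encodes the exchange factor that loads Cdc42 with GTP, was the least changed of the 10. Its wild-type values were 10.14, 10.21 and 10.11 (log2), and its deletion values of 10.14, 10.17 and 10.20 fell inside that range. The difference was 0.02 (95% confidence interval -0.08 to 0.12, n = 3 per group, limma adjusted p = 0.752), which bounds any change to between 0.946-fold and 1.09-fold at that confidence; its sign turned under quantile normalization and median centring. CDC42 and CDC24 thus did not show the same difference on these arrays, although that contrast was not tested.

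BEM1 (YBR200W), the scaffold that holds Cdc24 near Cdc42 and the p21-activated kinases, read 10.45, 10.40 and 10.54 (log2) in wild type and 10.82, 10.67 and 10.61 in deletion. The groups were 0.07 apart and the deletion arrays spanned 0.22, the widest range but one among the 10 genes. The difference was 0.24 (SE 0.07, n = 3 per group, limma adjusted p = 0.0441), or 1.18-fold. Leaving out any array other than deletion replicate 3 ended this call (adjusted p = 0.0571 to 0.13), as did quantile normalization (adjusted p = 0.0733) and median centring (adjusted p = 0.0764). The ratio of BEM1 to CDC24 within an array averaged 0.31 in wild type and 0.53 in deletion and its groups overlapped (exact permutation test, two-sided p = 0.2, adjusted p = 0.2, n = 3 per group).

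DIG1 (YPL049C) encodes a repressor that binds Ste12, also where Ste12 acts with Tec1 at filamentation genes. It read 11.32, 11.40 and 11.33 (log2) in wild type and 11.92, 11.80 and 11.74 in deletion. The groups were 0.34 apart. The difference was 0.47 (SE 0.06, n = 3 per group, limma adjusted p = 0.00171), or 1.38-fold (95% confidence interval 1.26 to 1.52). A gene for a repressor of the pathway was therefore higher in the same arrays as the sensor gene MSB2 and the anchor gene OPY2.

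DIG2 (YDR480W) encodes the related repressor, which shares the binding of Ste12 with Dig1. Its wild-type values were 9.14, 9.00 and 9.05 (log2), and its deletion values were 9.44, 9.18 and 9.09. Deletion replicate 3 fell below wild-type replicate 1, and the deletion arrays spanned 0.35, the widest of the 10 genes. The difference of 0.17 (95% confidence interval -0.04 to 0.39, n = 3 per group) did not pass (limma adjusted p = 0.211). It was 0.07 without deletion replicate 1 (limma adjusted p = 0.393) and 0.07 after quantile normalization (adjusted p = 0.652). With the 3 arrays of high 25S signal left out it passed at 0.41 (limma adjusted p = 0.0166), again with 1 deletion array, replicate 1, left. The ratio of DIG2 to DIG1 within an array was -2.18, -2.40 and -2.28 in wild type and -2.48, -2.62 and -2.65 in deletion. It moved by -0.29 with no overlap between groups, at the smallest p of the exact permutation test (two-sided p = 0.1, adjusted p = 0.133, n = 3 per group).

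Across the 10 genes the arrays of a group did not behave alike. On deletion replicate 1 PUN1 remained above background, and the 25S control read 9.07, against 11.28 and 12.53 on deletion replicates 2 and 3. Both traits mark the same array and cannot be told apart. Deletion replicate 1 gave the highest of the 3 deletion values for 8 of the 10 genes. Over all tested probe sets it was the highest for 35.2%. CDC42 and CDC24 were the exceptions, both highest on deletion replicate 3. With deletion replicate 1 left out, MSB2, OPY2, CDC42 and DIG1 still passed, BEM1 did not (0.18, limma adjusted p = 0.0731), and HKR1 did (-0.18, adjusted p = 0.025). The part of that array in the other values was not tested further. Of the 10 genes, 8 were higher and 1, HKR1, was lower in each of the 3 comparisons between arrays of the same number, and CDC24 was mixed. The matching share of all tested probe sets was not computed, so these counts only describe the 10 genes. By separation alone, all deletion arrays were higher for 7 genes and lower for 1, against 26.7% and 18.1% of all tested probe sets (44.8% in either direction).

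**Figure D3:**
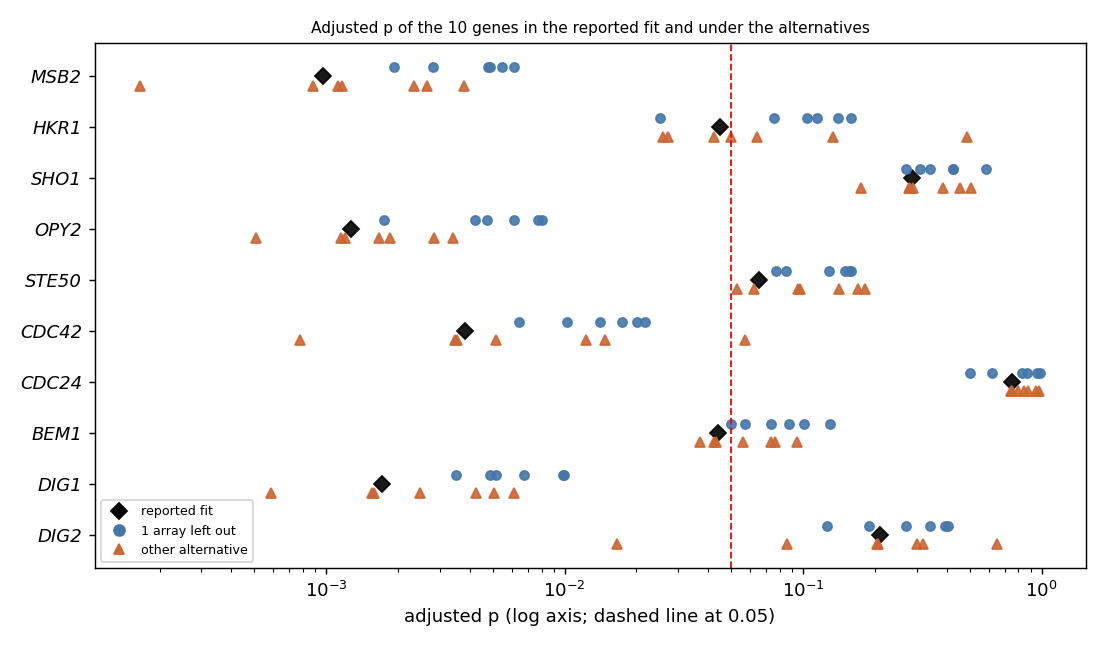
Adjusted p of each of the 10 genes (log axis, dashed line at 0.05) in the reported fit (black diamonds), with 1 array left out (blue circles) and under the other alternatives (orange triangles). MSB2, OPY2 and DIG1 stay left of the line throughout, CDC42 crosses it once, and HKR1 and BEM1 lie on both sides.

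The kinases and factors that act below these proteins differed in part. Of 11 genes of the MAP kinase module, its scaffold, factors and phosphatases, 4 were higher, 1 was lower and 6 did not pass, with a median difference of 0.12, where 15.8% of all tested probe sets were called higher and 9.82% lower. FUS3, the mating MAP kinase, and STE5, its scaffold, were 6.33 and 2.80 higher; both are also among the haploid-specific markers given above. STE12, the target of Dig1 and Dig2, was 0.68 higher (SE 0.05, limma adjusted p = 0.000135), from 10.18 ± 0.05 to 10.86 ± 0.05 (SD, n = 3 per group). KSS1, the filamentous MAP kinase, was 0.50 higher (SE 0.08, limma adjusted p = 0.00634). TEC1, the partner of Ste12 at filamentation genes, differed by 0.02 (adjusted p = 0.875) and did not pass, with a sign that turned under median centring. STE7, the MAP kinase kinase, was lower at -0.19 (adjusted p = 0.0161), which no longer passed when wild-type replicate 2, or deletion replicate 2 or 3, was left out (limma adjusted p = 0.0501 to 0.0556). STE20 and STE11, which receive the signal from Cdc42 and Ste50, did not pass at -0.08 and 0.12.

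Regulators and effectors of Cdc42 held 6 higher and 2 lower genes, with 14 of 22 not passing and a median of 0.08, beside the same 15.8% higher and 9.82% lower of all tested probe sets. GIC2, an effector that binds GTP-loaded Cdc42, rose by 0.85 (SE 0.05, limma adjusted p = 7.58e-05), and RSR1, the GTPase of bud site selection that recruits Cdc24, was 0.42 higher. MSB4, a GTPase-activating protein with a role in polarity, was 0.35 higher, and BEM4 was lower at -0.38.

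The list for the HOG pathway is partial and leaves out, among others, SHO1, STE50, OPY2 and HKR1, which are given above. Of these, OPY2 passed as higher and HKR1 as lower in the reported fit, and SHO1 and STE50 did not pass. Of the 7 genes on the list only HOG1, the MAP kinase of that pathway, passed, at 0.25 higher (SE 0.06, limma adjusted p = 0.0211). That call ended when wild-type replicate 1 or 3, or deletion replicate 2 or 3, was left out (adjusted p = 0.0506 to 0.0711). YPD1, a phosphotransfer protein, and SSK22, a MAP kinase kinase kinase, did not pass at -0.18 and -0.08, and the median of the list was -0.07. That 1 call of 7 stands beside 25.6% called among all tested probe sets.

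Among 6 genes for enzymes that process or glycosylate cell surface proteins such as Msb2, 1 was higher, 3 were lower and 2 did not pass, with 15.8% higher and 9.82% lower among all tested probe sets. PMT1 and PMT2, protein O-mannosyltransferases, were lower at -0.33 and -0.26, and the yapsin protease gene YPS3 was 0.37 higher. MKC7, another yapsin gene, was lower at -0.27 (limma adjusted p = 0.0365), a call lost with the replicate block (adjusted p = 0.0528) and when wild-type replicate 2 or 3, or deletion replicate 1 or 2, was left out (adjusted p = 0.0655 to 0.111). YPS1, the yapsin known to cleave Msb2, differed by -0.03 and PMT4, known to glycosylate it, by 0.13, and neither passed (adjusted p = 0.589 and 0.0783). MSB2 itself was 0.53 higher on the same arrays.

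Of 7 measured targets of the filamentous pathway, 6 passed as higher (15.8% of all tested probe sets) and 0 as lower, and the median was 0.63. The flocculin gene FLO11 read 11.30, 11.63 and 11.24 (log2) in wild type and 14.38, 14.31 and 14.25 in deletion, 2.92 higher. PGU1, a secreted pectinase, was 1.40 higher, PRY2, a sterol-binding secreted protein, 0.67 higher and SVS1, a cell wall protein, 0.63 higher. TEC1 was the member that did not pass, and KSS1 stands in this list as well as among the kinases. These counts and medians describe the lists; no test of a list as a set was made.

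**Figure D4:**
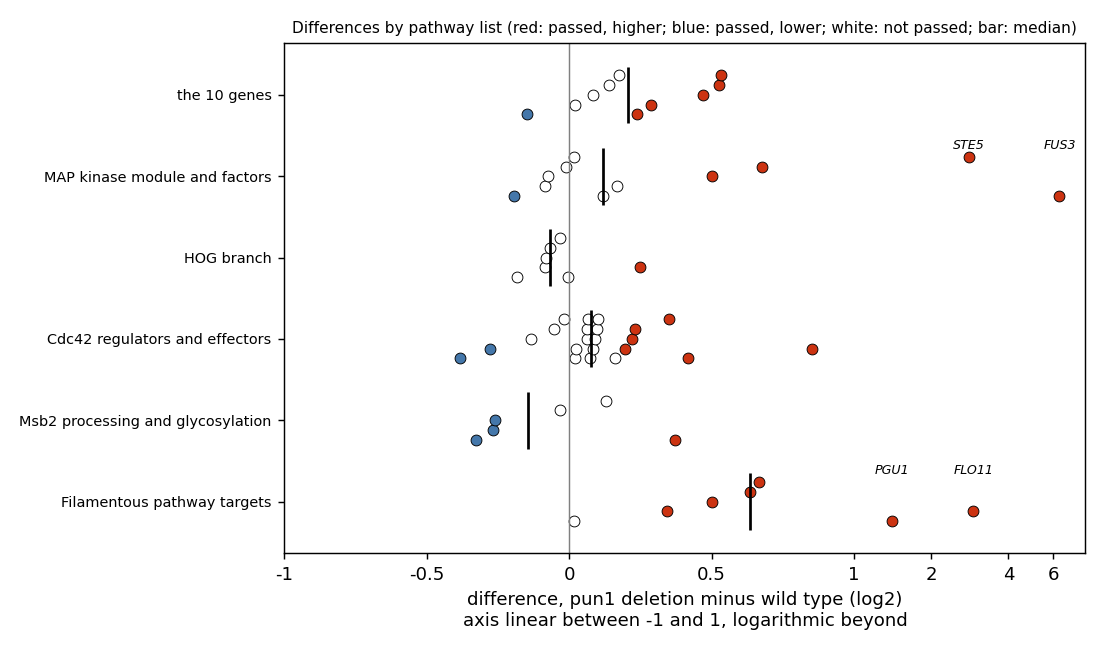
Difference of each gene, pun1 deletion minus wild type (log2; axis linear between -1 and 1 and logarithmic beyond), for the 10 genes and 5 lists of the pathway around them; red passed as higher, blue passed as lower, white did not pass, and the bar is the median. The medians run from -0.15 for Msb2 processing to 0.63 for the filamentous targets, with FUS3 at 6.33 as the widest value.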

How the data were processed

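The values are the deposited log2 probe set values, 1 per array, made by the authors with GCRMA, per the submitters' processing notes, which also name GCOS 1.1 and limma with no order of steps. Base 2 was assumed for the logarithm because of the value range. Array scanner files were not used here. Of 10928 probe sets, the 5498 of named S. cerevisiae genes were tested; names came from the platform annotation and the R64 gene table. Background was the 95th percentile of 1746 Schizosaccharomyces pombe probe sets. Differences are deletion minus wild type, from limma 3.58.1 in R 4.3.3 (lmFit, eBayes, no covariates, two-sided, Benjamini-Hochberg), checked on simulated data; pairs of genes were compared with the exact permutation test. Figures used matplotlib 3.10.9. Medians of the tested probe sets were 10.85 to 10.91 on the 6 arrays; array number, 3 per group, limits the precision. No column outside the series was present (0 columns). Fewer than all planned steps were run: protein and promoter sequences were not used here, and 1 listed target, YLR042C, was not analysed here.

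The members and lists were chosen with earlier results of these data known. Named genes are all members, PUN1, mating-type markers and, per list, up to 4 called genes with the widest differences, or 2 others where fewer than 2 were called; the text also names TEC1, STE7, STE20, STE11, YPS1 and PMT4, chosen after their values were seen. After subtracting each group's mean, arrays sharing a replicate number correlated across probe sets at 0.351, 0.213 and 0.112. Each matched pair thus passed a rule of over 0.1. So did 2 unmatched pairs, wild-type replicate 2 with deletion replicate 3 at 0.183 and wild-type replicate 3 with deletion replicate 2 at 0.161. The rule therefore cannot show that numbers 2 and 3 pair the arrays. The labels state no shared day, and the reported fit used no block. Alternatives were the replicate block, quantile normalization, median centring, a filter on dim probe sets, all probe sets of the array, a prior variance with trend, and leaving out each array or the 3 arrays of high 25S signal.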

Additional observations from a re-analysis of the deposited data

How the results depend on the processing

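The calls on MSB2, OPY2 and DIG1 and the lack of a call on SHO1 and STE50 held under all 13 alternatives. HKR1 lost its call with the replicate block (-0.15), with all probe sets of the array (-0.15, adjusted p = 0.133) and without the 3 arrays of high 25S signal (-0.09, adjusted p = 0.488), and ranged from -0.18 to -0.13 with 1 array left out. BEM1 lost its call with the replicate block (0.24), quantile normalization (0.22), median centring (0.21) and all probe sets of the array (0.24, adjusted p = 0.0944), and ranged from 0.18 to 0.29 with 1 array left out. Without the 3 arrays of high 25S signal, CDC42 lost its call (0.29) and DIG2 gained one (0.41). The sign of CDC24 turned under quantile normalization (0.00), median centring (-0.01) and without those 3 arrays (-0.01). Among other genes, TEC1 turned under median centring (-0.01), without those arrays (-0.08) and without wild type replicate 1 (range -0.05 to 0.06 with 1 array left out), SSK22 turned to 0.03 without those arrays, STE6 to 0.01 and 0.02 without wild type replicate 2 or deletion replicate 1 (range -0.08 to 0.02 with 1 array left out), and MFA1 to 0.04 without deletion replicate 1 (range -0.21 to 0.04). The cause was not tested.

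Of the members, 4 or 5 were called higher and 0 or 1 lower under every alternative; the replicate block, all probe sets and the fit without the 3 arrays gave 0 lower, as did leaving out any array but deletion replicate 1 (0 to 1). In the MAP kinase list the lower count was 0 with all probe sets and without the 3 arrays, and 0 to 1 with 1 array left out. In the HOG list the higher count was 0 with all probe sets and without the 3 arrays, and 0 to 1 with 1 array left out, as was its lower count. In the Cdc42 list without the 3 arrays 3 were higher and 1 lower, all probe sets gave 1 lower, and leaving out 1 array gave 1 to 2 lower. In the Msb2 processing list a prior variance with trend gave 2 higher, and the fit without the 3 arrays gave 1 lower. The replicate block changed no other member's call.

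Of all tested probe sets, 868 were called higher and 540 lower (61.6% of calls higher), against 700 and 760 (47.9% higher) after quantile normalization, 702 and 711 (49.7%) after median centring and 447 higher without the 3 arrays. With 1 array left out, 507 to 874 were higher and 284 to 560 lower. The 4 ratios between genes kept their direction after quantile normalization and with each array left out. Every member has 1 probe set, so no other probe set could be tried. The fit without the 3 arrays leaves 1 deletion array, assumed to vary like the wild type.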
